A study of Mus musculus with 24 samples.

Results

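The genes described here are 35 targets of the transcription factor ATF4 and members of its network in mouse liver, 11 of them cytosolic aminoacyl-tRNA synthetases. They were taken by symbol from a list, and all 35 were found among the 33019 gene identifiers counted. By role they comprise 8 transcription regulators and their modulators, 7 enzymes of serine synthesis and mitochondrial one-carbon metabolism, 3 amino acid and related enzymes, 5 stress and feedback genes, 1 tRNA exporter and the 11 synthetases. Polyadenylated RNA came from whole livers of C57BL/6J mice aged 2 months, and the 24 libraries fall into 6 genotypes with 4 libraries each. Livers of wild-type mice (WT) are the reference. Further groups are labelled with hepatic loss of Atg5 (Atg5 KO), of TSC1 (TSC1 KO), of both (DKO), and of both together with p62 (p62 TKO) or with Nrf2 (Nrf2 TKO). Both triple knockouts thus carry the Atg5 and TSC1 losses that the DKO carries. The sources used here give neither the Cre driver nor the floxed exons, and the labels name no sex. Whether the 4 libraries of a genotype are 4 animals is not stated either, so that p-values cover only the spread between libraries, which may be technical.

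Cells translate ATF4 more when a kinase phosphorylates the initiation factor eIF2, as happens when amino acids run short or misfolded protein builds up, and mTORC1 can raise ATF4 as well. ATF4 pairs with C/EBP proteins on a composite C/EBP-ATF element and drives genes for amino acid synthesis, amino acid import and tRNA charging, together with genes such as Ddit3, Trib3 and Ppp1r15a that shape or end the response. Atg5 is needed to form autophagosomes, TSC1 restrains mTORC1, p62 (gene Sqstm1) is an autophagy receptor that also ties up the Nrf2 inhibitor Keap1, and Nrf2 (gene Nfe2l2) drives antioxidant genes and cooperates with ATF4 on some of its targets.

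The promoters of the members were searched for the element spelled TGATGNAA, on both strands, in windows of 300 bases from 250 before to 50 after the gene start (RefSeq, GRCm38.p6). Of the 35 members 29 had a window, and 11 of these 29 (37.9%) held the element, against 1219 of 27025 genes (4.51%) in the whole table. A match describes the letters only. The 150 bases before the gene start, 5′ to 3′ on the gene's own strand and with the element in capitals, are shown for 3 members whose RNA was higher in DKO than in WT (Nupr1, Pck2, Gars), for 2 that were lower (Aars, Tars) and for Asns, which was lower in Atg5 KO. Phgdh is shown because it had one of the largest increases and no match. Where capitals read towards CATCA, the element lies on the other strand.
Nupr1 (chr7:126625471-126625620, minus strand): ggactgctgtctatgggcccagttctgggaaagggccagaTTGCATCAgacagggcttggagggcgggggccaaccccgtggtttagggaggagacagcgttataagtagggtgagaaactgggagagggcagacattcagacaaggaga
Pck2 (chr14:55540116-55540265, plus strand): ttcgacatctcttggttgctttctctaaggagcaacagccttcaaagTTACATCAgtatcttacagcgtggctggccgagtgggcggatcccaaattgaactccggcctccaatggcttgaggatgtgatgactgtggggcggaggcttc
Gars (chr6:55037851-55038000, plus strand): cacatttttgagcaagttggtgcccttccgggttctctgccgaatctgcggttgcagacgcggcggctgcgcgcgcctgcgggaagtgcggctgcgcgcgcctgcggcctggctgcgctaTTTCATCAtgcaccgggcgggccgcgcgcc
Aars (chr8:111033692-111033841, plus strand): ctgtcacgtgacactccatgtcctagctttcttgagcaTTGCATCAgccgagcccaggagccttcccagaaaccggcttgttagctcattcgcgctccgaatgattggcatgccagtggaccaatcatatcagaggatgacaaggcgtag
Tars (chr15:11399659-11399808, minus strand): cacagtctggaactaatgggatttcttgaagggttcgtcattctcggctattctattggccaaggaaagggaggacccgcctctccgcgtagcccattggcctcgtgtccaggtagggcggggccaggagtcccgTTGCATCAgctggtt
Asns (chr6:7693210-7693359, minus strand): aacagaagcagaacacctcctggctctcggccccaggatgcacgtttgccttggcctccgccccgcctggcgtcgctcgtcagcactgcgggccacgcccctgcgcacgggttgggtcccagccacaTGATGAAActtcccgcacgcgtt
Phgdh (chr3:98339970-98340119, minus strand): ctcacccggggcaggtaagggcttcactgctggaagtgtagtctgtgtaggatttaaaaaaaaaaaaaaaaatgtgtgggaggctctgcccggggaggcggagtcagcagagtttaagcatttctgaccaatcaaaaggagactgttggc
The element was found in 5 of 7 synthetases with a window (Aars, Gars, Iars, Tars, Yars), in both amino acid enzymes with one (Asns, Pck2), in 3 of 8 regulators (Atf3, Trib3, Nupr1), in 1 of 5 stress and feedback genes (Chac1), and in 0 of 6 serine and one-carbon enzymes. Aars had a second match, after the gene start. No window was found for Aldh1l2, Cth, Cars, Lars, Nars and Wars.

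Total counts per library ran from 10494080 to 13057467. Levels are CPM, counts divided by library size on a common scale, with library sizes scaled by the trimmed mean of M-values (TMM). Changes are log2 fold changes ± standard error, with p-values from edgeR's quasi-likelihood F test adjusted over the 15851 genes tested. The standard error was derived from that test, as the absolute log2 fold change over the square root of F. A member is called higher or lower at an adjusted p under 0.05. All 35 members passed the filter on low counts, although Aldh1l2 passed it only through the DKO libraries, so that a difference of that gene was bound to appear. The targeted genes gave an incomplete check of the labels. Nfe2l2 fell from 113 ± 32.7 CPM in DKO to 11.7 ± 4.24 in Nrf2 TKO (-3.26 ± 0.21, adjusted p = 8.3e-11). Sqstm1 stood at 249, 439, 363 and 774 CPM in p62 TKO replicates 1 to 4, against 961 ± 157 in DKO. The WT libraries held 556, 558, 691 and 508 CPM, so replicate 4 of p62 TKO lay above all of them and its counts did not show the p62 loss. Counts over the whole genes did not show the Atg5 and Tsc1 deletions, so the genotypes name libraries as labelled. Replicate 4 of p62 TKO, where Sqstm1 was highest, was also the highest of its 4 libraries for 18 of the 35 members, and replicate 4 of Nrf2 TKO likewise for 18. In DKO, replicate 4 was the lowest of its 4 libraries for 21 members and replicate 1 the highest for 17. Replicate 1 of p62 TKO and replicate 2 of Nrf2 TKO were each the lowest for 17.

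Libraries of DKO needed much larger scaling factors than those of WT. With library totals alone, the median of all tested genes stood 1.07 (log2) above WT in DKO, against 0.08 with TMM, so that each change below is relative to the bulk of genes, and members with modest decreases change direction under totals alone where this is stated. Markers of cell types also moved with the genotypes. The summed level of 10 hepatocyte markers ranged over 13978 to 19296 CPM in the DKO libraries, against 86069 to 107853 in those of WT. The single knockouts had 48639 to 115649 (Atg5 KO) and 83462 to 97878 (TSC1 KO), the triple knockouts 37761 to 48662 (p62 TKO) and 71384 to 95515 (Nrf2 TKO). For 10 cholangiocyte markers the sum was 7156 to 10627 CPM in DKO, against 69 to 99.9 in WT. Here the single knockouts had 480 to 1172 (Atg5 KO) and 588 to 993 (TSC1 KO), the triple knockouts 2548 to 3755 (p62 TKO) and 1670 to 2986 (Nrf2 TKO). In DKO versus WT, 10 of 10 hepatocyte markers fell and 10 of 10 cholangiocyte markers rose. No marker of either list was at 0 in any genotype. Of the other lists in DKO versus WT, 5 of 10 macrophage markers rose and 4 fell, 7 of 10 lymphocyte markers rose and 0 fell, 7 of 10 stellate cell markers rose and 1 fell, 3 of 8 endothelial markers rose and 2 fell, and 9 of 10 cycling markers rose and 0 fell. The part of these shifts in the results below was not tested, and in whole liver a smaller share of cells of a type and less RNA per cell cannot be told apart.

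The 35 genes did not move as one block in any genotype. In DKO the regulator Nupr1 was 239-fold above WT, and the serine synthesis enzymes Phgdh and Psat1 were 178-fold and 36.2-fold higher. The secreted glycoprotein gene Stc2 was 35.7-fold higher and the mitochondrial enzyme gene Mthfd1l 27-fold higher. In the same livers Cth, which makes cysteine, was 7.01-fold lower, Cebpb 4.98-fold lower, Shmt2 4.92-fold lower, and the synthetases Tars and Aars 3.69-fold and 3.61-fold lower. Atf4 RNA itself was not called between DKO and WT (-0.19 ± 0.16, adjusted p = 0.29), but it was called higher with totals alone (0.80, adjusted p = 0.00013).

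In DKO versus WT, 17 of the 35 members were called higher and 12 lower, where 37.1% and 32.3% of all tested genes were called higher and lower. The median change of the members was 0.51, beside 0.08 over all genes. With library totals alone 24 were higher and 5 lower, beside 11158 and 1767 of the 15851 genes tested. Counts of other lists with totals alone, given below for DKO versus WT, stand beside these. Atg5 KO versus WT had 7 higher and 9 lower members (18.6% and 11.3% of all genes), with a median of -0.23 beside -0.00. Totals alone gave 10 and 2, beside 5719 and 349 of the 15851 genes. TSC1 KO versus WT had 7 higher and 2 lower (8.79% and 7.6% of all genes), with a median of 0.05 beside 0.01. These contrasts share the WT libraries. The increases amount to 20% of the members in both single knockouts, close to the share of all genes in Atg5 KO and above it in TSC1 KO. With totals alone TSC1 KO had 9 higher and 2 lower members, beside 1851 and 628 of the 15851 genes.

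Against Atg5 KO, 17 members were higher and 8 lower in DKO (29.2% and 27.3% of all genes). Totals alone gave 24 and 4, beside 9156 and 1955 of the 15851 genes tested. Against TSC1 KO, 16 were higher and 12 lower (36.6% and 30% of all genes). Totals alone gave 23 and 5, beside 10774 and 1894 of all genes. The interaction, the DKO change less the sum of both single changes on the log2 scale, was called for 9 members in the higher and 7 in the lower direction (15.5% and 19.3% of all genes). With totals alone it was called for 19 and 3, beside 5620 and 1684 of all genes. In p62 TKO versus DKO 9 members were higher and 9 lower (22.3% and 21.5% of all genes). With totals alone 5 were higher and 15 lower, beside 1624 and 7544 of all genes. In Nrf2 TKO versus DKO 9 were higher and 13 lower (26.7% and 29.2% of all genes). With totals alone 5 were higher and 23 lower, beside 1826 and 9483 of all genes. Between the triple knockouts 6 members were higher and 1 lower in p62 TKO (10.4% and 7.11% of all genes). With totals alone 13 were higher and 0 lower, beside 2987 and 549 of all genes. Comparisons with DKO use the same DKO libraries, so their values are given side by side and are not independent of one another.

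**Figure D1:**
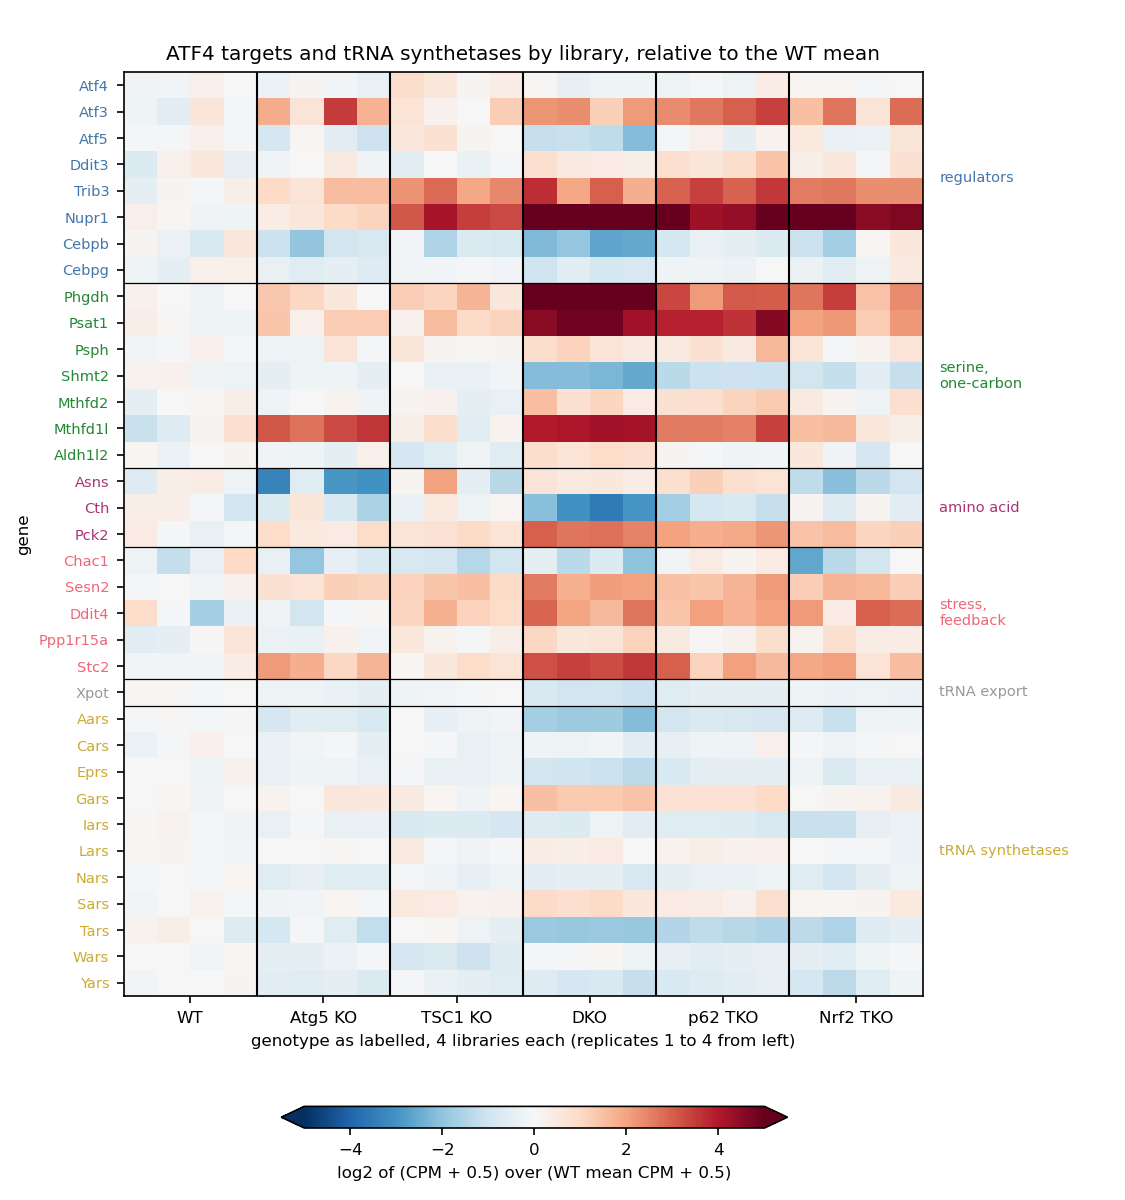
Colour map of the 35 genes (rows, grouped and coloured by role) in the 24 libraries (columns, 4 per genotype), as log2 of CPM plus 0.5 over the WT mean plus 0.5, with colours capped at 5 in either direction. Nupr1, Phgdh, Psat1, Mthfd1l and Stc2 are darkest red in the DKO columns, while Shmt2, Cth, Cebpb, Aars and Tars are blue there.

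Among the regulators, Nupr1 encodes a small stress-induced chromatin protein. It stood at 1.7, 1.5, 1.16 and 1.1 CPM in the 4 WT libraries, at 1.91, 2.25, 3.11 and 3.57 in Atg5 KO and at 15.4, 31.8, 20.1 and 17.7 in TSC1 KO. It reached 393, 215, 264 and 442 CPM in DKO, 101, 34.4, 38.5 and 61.7 in p62 TKO and 77.9, 85.3, 41.5 and 46.6 in Nrf2 TKO. Every DKO library was above the other 20 libraries, every triple knockout library was above every TSC1 KO library, and every TSC1 KO library was above WT and Atg5 KO. The gene rose in TSC1 KO (3.95 ± 0.43, adjusted p = 3.8e-06) and in DKO (7.90 ± 0.46, adjusted p = 7.1e-12), while in Atg5 KO it was not called (0.98 ± 0.49, adjusted p = 0.14). Every Atg5 KO library was nevertheless above every WT library. There Nupr1 was called higher with DESeq2 (0.98, adjusted p = 0.049) and with only Atg5 KO and WT in the model (1.01, adjusted p = 0.03). Its interaction was positive (2.97 ± 0.62, adjusted p = 0.00083). From the DKO level it fell 5.58-fold in p62 TKO (-2.48 ± 0.33, adjusted p = 4.2e-06) and 5.22-fold in Nrf2 TKO (-2.38 ± 0.33, adjusted p = 2.8e-06), and the triple knockouts were not called apart (-0.10 ± 0.31, adjusted p = 0.87).

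Trib3 encodes a pseudokinase that binds ATF4 and limits it. Its levels were 2.5, 4.04, 3.49 and 4.63 CPM in WT, 7.78, 6.02, 11.5 and 11.8 in Atg5 KO and 19.5, 29.3, 15.6 and 21.3 in TSC1 KO. They were 54, 15.5, 32.4 and 14.1 in DKO, 32, 44.2, 31.3 and 47.4 in p62 TKO and 24, 25.7, 20.3 and 20.4 in Nrf2 TKO. All 20 libraries with a deletion were above WT, and the DKO libraries spanned the range of TSC1 KO. Trib3 rose in Atg5 KO (1.35 ± 0.37, adjusted p = 0.0097), in TSC1 KO (2.55 ± 0.37, adjusted p = 0.0001) and in DKO (2.98 ± 0.37, adjusted p = 3.1e-07). It was called neither in p62 TKO versus DKO (0.42 ± 0.31, adjusted p = 0.3) nor in Nrf2 TKO versus DKO (-0.36 ± 0.32, adjusted p = 0.35), although without DKO replicate 1, the highest of its group, the first of these became 0.90 with an adjusted p of 0.013. With totals alone the second became -1.01 with an adjusted p of 0.011.

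Atf4 was at 127, 131, 173 and 148 CPM in WT, 269, 212, 161 and 186 in TSC1 KO and 151, 108, 126 and 123 in DKO. It was higher in TSC1 KO than in WT (0.51 ± 0.16, adjusted p = 0.033). That call was lost without WT replicate 1 or 2 or TSC1 KO replicate 1 or 2 (0.36 to 0.50, adjusted p = 0.07 to 0.16). Atf4 was lower in DKO than in TSC1 KO (-0.71 ± 0.16, adjusted p = 0.00054), but 0.16 and not called with totals alone. The triple knockouts held 121 to 188 and 138 to 154 CPM, and neither was called against DKO, although with totals alone Nrf2 TKO was called lower (-0.44, adjusted p = 0.021).

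Atf3, an early stress-induced partner and target of ATF4, was at 1.59, 1.16, 3.18 and 1.83 CPM in WT and 8.23, 3.32, 26.8 and 7.62 in Atg5 KO, without overlap. DKO held 10.8, 11.8, 5.05 and 10.3 CPM, also without overlap with WT, whereas TSC1 KO held 3.39, 2.37, 1.93 and 5.22. Atf3 rose in Atg5 KO (2.56 ± 0.60, adjusted p = 0.0029) and in DKO (2.28 ± 0.60, adjusted p = 0.0019), and was not called in TSC1 KO (0.72 ± 0.64, adjusted p = 0.48), nor in either triple knockout against DKO (p62 TKO 0.90 ± 0.50, Nrf2 TKO 0.13 ± 0.51). With only p62 TKO and DKO in the model Atf3 was called higher in p62 TKO (0.91, adjusted p = 0.029).

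Ddit3, which encodes CHOP and marks a prolonged stress response, was at 10.2, 20, 23.9 and 12.2 CPM in WT and 29.6, 22.5, 21.9 and 20.4 in DKO. These ranges overlapped, and the change was not called (0.51 ± 0.24, adjusted p = 0.065), except without WT replicate 3 (0.67, adjusted p = 0.021) and with totals alone (1.48). The exons of Ddit3 overlap those of the synthetase gene Mars on the other strand, and no source used here says whether counting used the strand. The same limit holds for Atf5, Psph, Shmt2, Aldh1l2, Cebpb, Cebpg, Ppp1r15a, Pck2, Aars, Cars and Yars, which also share exon bases with a gene on the other strand.

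The remaining regulators went down in DKO. Cebpb, a partner of ATF4 that is abundant in hepatocytes, stood at 194, 145, 105 and 262 CPM in WT and at 38.3, 45.5, 28.1 and 29.8 in DKO, with every DKO library below every WT library. It rose again to 95.3, 137, 126 and 110 in p62 TKO and 83.6, 54.4, 191 and 255 in Nrf2 TKO. Cebpb fell in DKO (-2.32 ± 0.41, adjusted p = 3.8e-05) and was higher in p62 TKO (1.73 ± 0.40, adjusted p = 0.0015) and Nrf2 TKO (2.04 ± 0.40, adjusted p = 0.00023) than in DKO. Atf5, a target of ATF4 with mitochondrial stress functions, went from 350 to 444 CPM in WT to 82.2 to 174 in DKO (-1.37 ± 0.27, adjusted p = 0.00011) and back to 268 to 444 and 288 to 571 in p62 and Nrf2 TKO (1.37 ± 0.27 and 1.55 ± 0.27 against DKO, both called). With totals alone the DKO change of Atf5 was -0.39 and not called. Cebpg, which pairs with ATF4 and lacks an activation domain, fell from 74 to 121 to 50.2 to 68 CPM (-0.81 ± 0.17, adjusted p = 0.00026), but stood at 0.19 with totals alone.

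Serine is made from a glycolytic intermediate by Phgdh, Psat1 and Psph in turn, and Shmt2, Mthfd2, Mthfd1l and Aldh1l2 then pass its side-chain carbon through mitochondrial folate. Of these 7 genes 6 rose and 1 fell in DKO versus WT, with a median of 1.42, or of 2.40 and the same counts with totals alone. Both medians are the value of Aldh1l2, which is among the 6. That gene passed the filter only through the DKO libraries, so its rise was bound to appear. Phgdh, the first enzyme, held 0.34, 0.231, 0.106 and 0.244 CPM in WT, which is 8 counts in all 4 libraries together. It held 1.37, 0.988, 0.557 and 0.243 CPM in Atg5 KO and 1.2, 1.04, 1.84 and 0.591 in TSC1 KO. In DKO it held 45.8, 42.5, 48.7 and 33 CPM, all above the other 20 libraries, against 6.87, 2.68, 5.66 and 5.53 in p62 TKO and 4.16, 7.58, 1.45 and 3.28 in Nrf2 TKO. The increase in DKO (7.48 ± 0.54, adjusted p = 5.7e-11) had a positive interaction (3.42 ± 1.06, adjusted p = 0.015), which was lost without WT replicate 1 (3.1, adjusted p = 0.07). Phgdh fell 8.13-fold from DKO in p62 TKO (-3.02 ± 0.36, adjusted p = 9.4e-07) and 10.1-fold in Nrf2 TKO (-3.34 ± 0.37, adjusted p = 1.2e-07). The smaller increase in TSC1 KO (2.31 ± 0.70, adjusted p = 0.027) was not called without WT replicate 2 or 3 or TSC1 KO replicate 3 (1.99 to 2.31, adjusted p = 0.061 to 0.082).

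Psat1 (chromosome 19, 15904678 to 15947337, minus strand, GRCm38), which transfers the amino group, was higher in p62 TKO than in Nrf2 TKO. It was at 1.36, 1.04, 0.741 and 0.731 CPM in WT, 3.35, 1.26, 3.03 and 3.08 in Atg5 KO and 1.2, 3.89, 2.32 and 2.66 in TSC1 KO. It was at 32.7, 41.9, 40.8 and 26.2 CPM in DKO, 20.7, 20.6, 17.7 and 35.3 in p62 TKO and 5.45, 6.17, 3 and 6.08 in Nrf2 TKO. The Nrf2 TKO libraries lay below all DKO and p62 TKO libraries, while p62 TKO overlapped DKO through its replicate 4. Psat1 rose in DKO (5.18 ± 0.36, adjusted p = 3.3e-11) with a positive interaction (2.33 ± 0.53, adjusted p = 0.0014) and fell in Nrf2 TKO (-2.77 ± 0.30, adjusted p = 6.2e-08). Against DKO the p62 TKO value was -0.59 ± 0.27, adjusted p = 0.08, or -0.85 with an adjusted p of 0.018 without p62 TKO replicate 4. With totals alone this decrease was called too (-1.04, adjusted p = 0.006). The difference between the triple knockouts was itself called (2.18 ± 0.29, adjusted p = 2.9e-05).

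Mthfd1l (chromosome 10, 3973118 to 4167081, plus strand), which releases formate from the mitochondrion, was the member most raised in Atg5 KO. It held 0.113, 0.347, 0.953 and 1.83 CPM in WT, 10.8, 8.09, 12.3 and 15.3 in Atg5 KO and 1.09, 1.9, 0.387 and 0.985 in TSC1 KO. It held 19.9, 21.1, 23.7 and 22.8 CPM in DKO, 7.5, 7.33, 6.99 and 13.6 in p62 TKO and 3.17, 3.49, 1.45 and 1.16 in Nrf2 TKO. Atg5 KO and DKO were both above all WT and TSC1 KO libraries. Mthfd1l rose in Atg5 KO (3.84 ± 0.47, adjusted p = 3.6e-06) and DKO (4.75 ± 0.47, adjusted p = 7.1e-09) and was not called in TSC1 KO (0.44 ± 0.56, adjusted p = 0.64). From DKO it fell in p62 TKO (-1.30 ± 0.36, adjusted p = 0.0048) and 9.29-fold in Nrf2 TKO (-3.22 ± 0.40, adjusted p = 5.8e-07), and it was higher in p62 TKO than in Nrf2 TKO (1.91 ± 0.40, adjusted p = 0.002).

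The enzymes Psph and Mthfd2 rose by less. Psph, the last step of serine synthesis, went from 8.39 to 11.2 CPM in WT to 13 to 21.2 in DKO (0.84 ± 0.27, adjusted p = 0.0074). Mthfd2, a mitochondrial folate dehydrogenase low in normal adult tissue, went from 3.29 to 5.97 to 6.42 to 14.6 CPM (1.06 ± 0.27, adjusted p = 0.0013). Neither was called in p62 TKO versus DKO. Mthfd2 was lower in Nrf2 TKO versus DKO (-0.70 ± 0.26, adjusted p = 0.027), a call lost with only these groups in the model (-0.62, adjusted p = 0.11) and without DKO replicate 1 or 3 or Nrf2 TKO replicate 1, 2 or 3 (-0.66 to -0.45, adjusted p = 0.058 to 0.16). Psph was not called there (-0.46 ± 0.26, adjusted p = 0.14) except with totals alone (-1.13, adjusted p = 0.00068). Aldh1l2, a mitochondrial formyl-folate dehydrogenase, was at 0.231 to 0.487 CPM in WT and 0.943 to 1.2 in DKO, on 14 and 80 counts per genotype (1.42 ± 0.51, adjusted p = 0.017), and its call was lost without WT replicate 2 (1.17, adjusted p = 0.071).

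Shmt2 (chromosome 10, 127517123 to 127522444, minus strand), which feeds serine into mitochondrial folate, went the other way. It stood at 319, 325, 251 and 239 CPM in WT, 200, 246, 243 and 205 in Atg5 KO and 282, 217, 227 and 261 in TSC1 KO. In DKO it stood at 62.1, 62.7, 57.9 and 48 CPM, below the other 20 libraries, with 112, 134, 139 and 135 in p62 TKO and 150, 123, 199 and 129 in Nrf2 TKO. Shmt2 fell in DKO (-2.30 ± 0.15, adjusted p = 1.8e-11) with a negative interaction (-1.75 ± 0.21, adjusted p = 1.4e-06), and neither single knockout was called (Atg5 KO -0.35 ± 0.15, adjusted p = 0.079, and TSC1 KO -0.20 ± 0.15, adjusted p = 0.38). It was higher than in DKO in p62 TKO (1.17 ± 0.15, adjusted p = 1.9e-06) and in Nrf2 TKO (1.38 ± 0.15, adjusted p = 8.3e-08). The summed hepatocyte markers given above were lowest in DKO too, and their part in the Shmt2 result was not tested.

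Outside the member list, enzymes of cytosolic folate metabolism and of serine, glycine and sarcosine breakdown were largely lower. In DKO versus WT 0 of 16 rose and 11 fell, with a median of -1.73, or 2 and 8 with a median of -0.72 with totals alone. The cytosolic serine hydroxymethyltransferase Shmt1 fell from 215 ± 33.1 to 30.7 ± 4.65 CPM (SD, n = 4; -2.81 ± 0.18, adjusted p = 1.2e-11), and the glycine methyltransferase Gnmt from 1965 ± 405 to 176 ± 92.2 CPM (-3.48 ± 0.43, adjusted p = 2.9e-07). In p62 TKO versus DKO 12 of the 16 were higher, and in Nrf2 TKO versus DKO 12 as well, with 0 lower in either (9 and 1, and 11 and 2, higher and lower with totals alone).

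**Figure D2:**
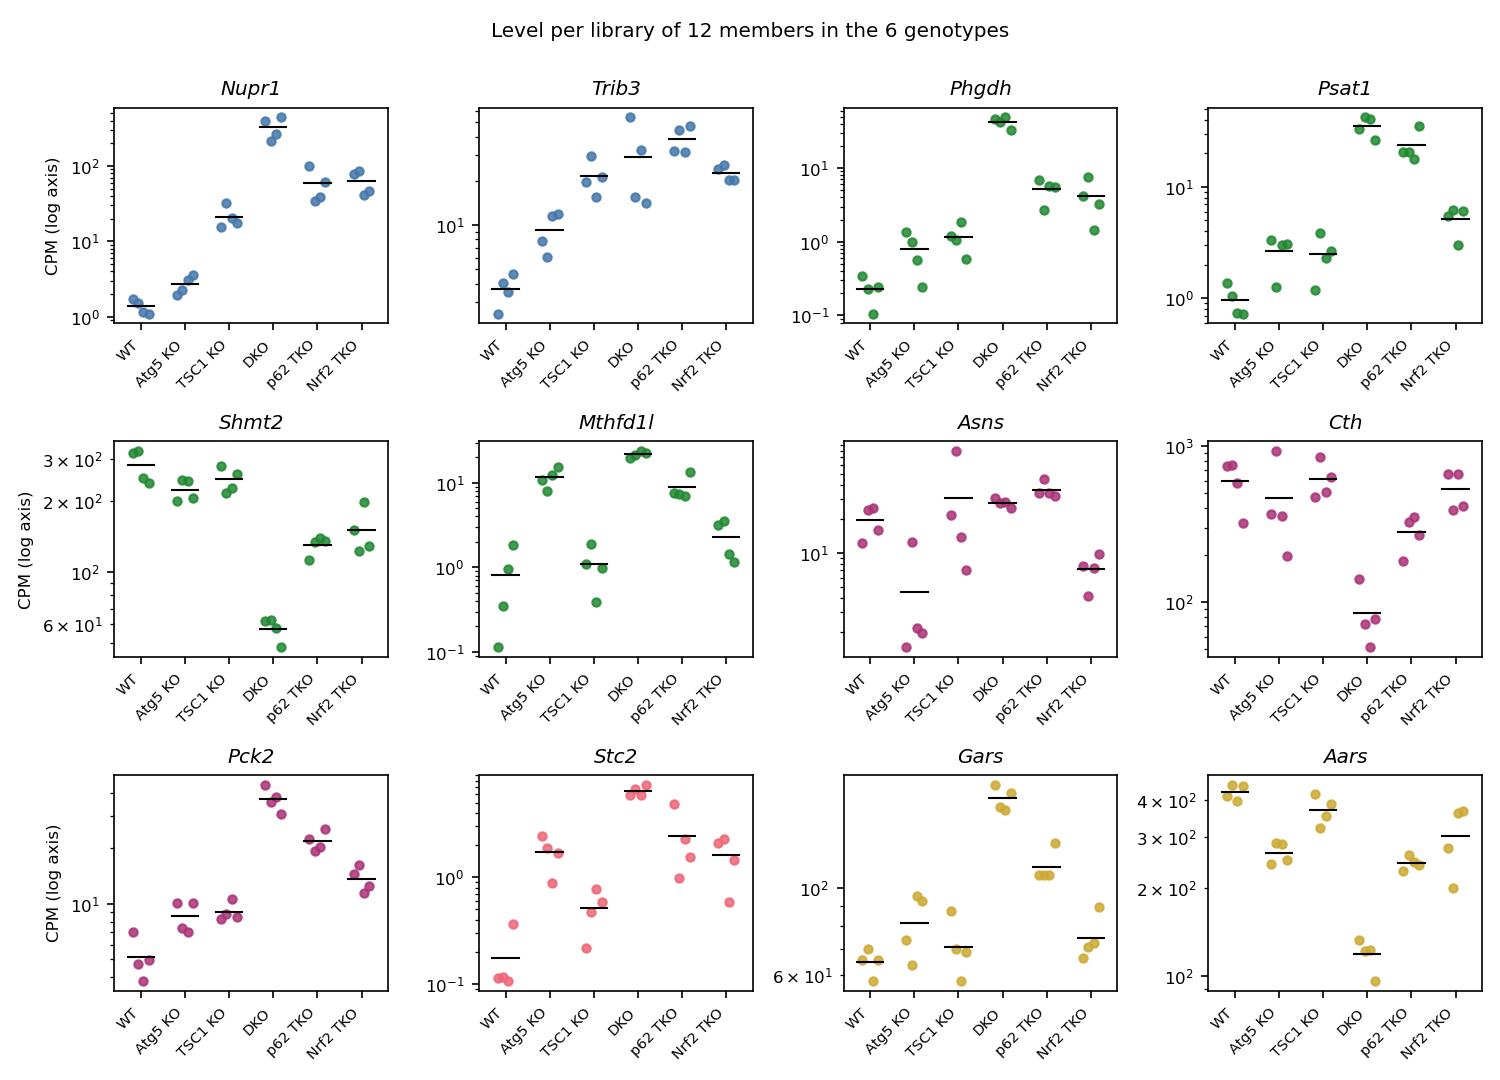
CPM per library (points, log axis) of 12 members in the 6 genotypes, with the mean of the 4 libraries as a bar and point colour by role. Phgdh, Nupr1, Pck2, Stc2 and Gars peak in DKO, Shmt2, Cth and Aars are lowest there, and Asns and Mthfd1l differ between the triple knockouts.

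The amino acid enzymes split. Asns, asparagine synthetase and a classical ATF4 target, was at 12.1, 24, 25.1 and 16 CPM in WT, 1.45, 12.5, 2.15 and 1.95 in Atg5 KO and 21.4, 79.2, 13.9 and 6.99 in TSC1 KO. It was at 30.7, 27.5, 27.9 and 25 CPM in DKO, 33.9, 45.2, 33.8 and 31.5 in p62 TKO and 7.62, 4.16, 7.36 and 9.75 in Nrf2 TKO. Atg5 KO replicate 2 and TSC1 KO replicate 2 stood far above the rest of their groups, and all Nrf2 TKO libraries lay below WT, DKO and p62 TKO. Asns fell in Atg5 KO (-2.12 ± 0.65, adjusted p = 0.018), by -3.39 without Atg5 KO replicate 2, but the call was lost without Atg5 KO replicate 1, 3 or 4 (-1.89 to -1.82, adjusted p = 0.06 to 0.064). In DKO it was not called against WT (0.52 ± 0.59, adjusted p = 0.44) except with totals alone (1.5) and with only DKO and WT in the model (0.50, adjusted p = 0.045). It was higher in DKO than in Atg5 KO (2.65 ± 0.65, adjusted p = 0.0016). It fell in Nrf2 TKO against DKO (-1.95 ± 0.62, adjusted p = 0.012), not in p62 TKO (0.38 ± 0.57, adjusted p = 0.62), and the triple knockouts differed (2.33 ± 0.63, adjusted p = 0.014). With only p62 TKO and DKO in the model Asns was called higher in p62 TKO (0.39, adjusted p = 0.028). The interaction was not called (1.99 ± 0.87, adjusted p = 0.082), but became 3.18 without Atg5 KO replicate 2 (adjusted p = 0.005) and 3.05 without TSC1 KO replicate 2 (adjusted p = 0.0028), and 2.57 with totals alone (adjusted p = 0.015).

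Pck2, the mitochondrial phosphoenolpyruvate carboxykinase, changed with little spread. It was at 7.03, 4.74, 3.81 and 4.99 CPM in WT, 10.1, 7.37, 7.01 and 10.1 in Atg5 KO and 8.31, 8.82, 10.6 and 8.47 in TSC1 KO. It was at 44.1, 35.8, 37.8 and 30.8 CPM in DKO, 22.4, 19.4, 20.4 and 25.4 in p62 TKO and 14.6, 16.3, 11.4 and 12.5 in Nrf2 TKO. The ranges of DKO, p62 TKO, Nrf2 TKO and TSC1 KO did not overlap and fell in that order. Pck2 rose in both single knockouts (Atg5 KO 0.75 ± 0.18, adjusted p = 0.0035, and TSC1 KO 0.82 ± 0.18, adjusted p = 0.004) and further in DKO (2.85 ± 0.18, adjusted p = 9.4e-12), with a positive interaction (1.28 ± 0.25, adjusted p = 0.00034). It fell from DKO in p62 TKO (-0.76 ± 0.16, adjusted p = 0.0006) and in Nrf2 TKO (-1.44 ± 0.17, adjusted p = 1.9e-07), and was higher in p62 TKO than in Nrf2 TKO (0.68 ± 0.17, adjusted p = 0.0067).

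Cth (chromosome 3, 157894248 to 157925077, minus strand), the cystathionine gamma-lyase that releases cysteine, was at 750, 758, 578 and 321 CPM in WT and 367, 927, 356 and 199 in Atg5 KO. It was at 475, 845, 510 and 636 CPM in TSC1 KO, 141, 73, 51.4 and 78.2 in DKO, 183, 325, 350 and 271 in p62 TKO and 659, 389, 663 and 414 in Nrf2 TKO. Every DKO library was below the other 20, and the single knockouts overlapped WT. Cth fell in DKO (-2.81 ± 0.41, adjusted p = 3e-06) with a negative interaction (-2.46 ± 0.55, adjusted p = 0.0014), and was higher than in DKO in p62 TKO (1.72 ± 0.39, adjusted p = 0.0013) and Nrf2 TKO (2.63 ± 0.41, adjusted p = 1.2e-05). Cbs, which acts just before Cth and belongs to the folate and serine list, fell as well (815 ± 131 to 100 ± 21.3 CPM, -3.03 ± 0.31, adjusted p = 1.1e-08).

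Of the 5 stress and feedback genes 4 rose and 0 fell in DKO versus WT, with a median of 2.21, or of 3.21 and the same counts with totals alone. Sesn2, a leucine-binding inhibitor of mTORC1 signalling, was at 7.49, 7.97, 7.3 and 9.26 CPM in WT, 13.9, 13.1, 18.8 and 18 in Atg5 KO and 18.3, 22, 23.9 and 15.9 in TSC1 KO. It was at 50.3, 28.4, 35.5 and 33.9 CPM in DKO, 23.2, 21.5, 27.4 and 36.8 in p62 TKO and 19.7, 27.1, 26.2 and 19.5 in Nrf2 TKO. All 20 libraries with a deletion were above WT. Sesn2 rose in Atg5 KO (1.0 ± 0.20, adjusted p = 0.00076), TSC1 KO (1.32 ± 0.20, adjusted p = 0.00013) and DKO (2.21 ± 0.20, adjusted p = 1.8e-09), and its interaction was not called (-0.11 ± 0.27, adjusted p = 0.8). It fell in Nrf2 TKO against DKO (-0.68 ± 0.19, adjusted p = 0.0036). In p62 TKO it was -0.44 ± 0.18, adjusted p = 0.056, and was called without DKO replicate 2 (-0.55, adjusted p = 0.023) or p62 TKO replicate 4 (-0.62, adjusted p = 0.011), and with totals alone (-0.90, adjusted p = 0.00098).

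Stc2 (chromosome 11, 31357307 to 31370074, minus strand), a secreted glycoprotein induced by endoplasmic reticulum stress, was near the limit of detection in WT, with 6 counts in 4 libraries. Its levels were 0.113, 0.116, 0.106 and 0.365 CPM in WT, 2.44, 1.89, 0.876 and 1.7 in Atg5 KO and 0.219, 0.474, 0.773 and 0.591 in TSC1 KO. They were 5.88, 6.72, 5.94 and 7.32 in DKO, 4.81, 0.984, 2.28 and 1.56 in p62 TKO and 2.08, 2.3, 0.581 and 1.45 in Nrf2 TKO. The DKO libraries were above the other 20, and Atg5 KO was above WT and TSC1 KO. Stc2 rose in Atg5 KO (3.26 ± 0.62, adjusted p = 0.0004) and DKO (5.16 ± 0.57, adjusted p = 3.9e-08) and fell from DKO in p62 TKO (-1.41 ± 0.39, adjusted p = 0.0057) and Nrf2 TKO (-1.99 ± 0.41, adjusted p = 0.00027).

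Ddit4, which encodes the mTORC1 inhibitor REDD1, was at 44.9, 22.5, 6.99 and 18.5 CPM in WT and 177, 91.5, 73 and 151 in DKO, with 48.8, 81.3, 52 and 44.5 in TSC1 KO. DKO did not overlap WT, although WT spanned a wide range. It rose in DKO (2.41 ± 0.50, adjusted p = 0.00023), and was called in neither triple knockout against DKO (p62 TKO -0.57 ± 0.46, Nrf2 TKO -0.02 ± 0.46). Ppp1r15a, which directs the phosphatase that removes the phosphate from eIF2, went from 9.42 to 22.8 to 21.3 to 32.2 CPM with overlapping ranges (0.89 ± 0.24, adjusted p = 0.0021). Chac1, a glutathione-degrading enzyme, was not called in DKO (-1.10 ± 0.50, adjusted p = 0.057), but fell without WT replicate 2 or 3 or DKO replicate 1 (-1.43 to -1.29, adjusted p = 0.017 to 0.042). With totals alone its change was -0.08 (adjusted p = 0.88).

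**Figure D3:**
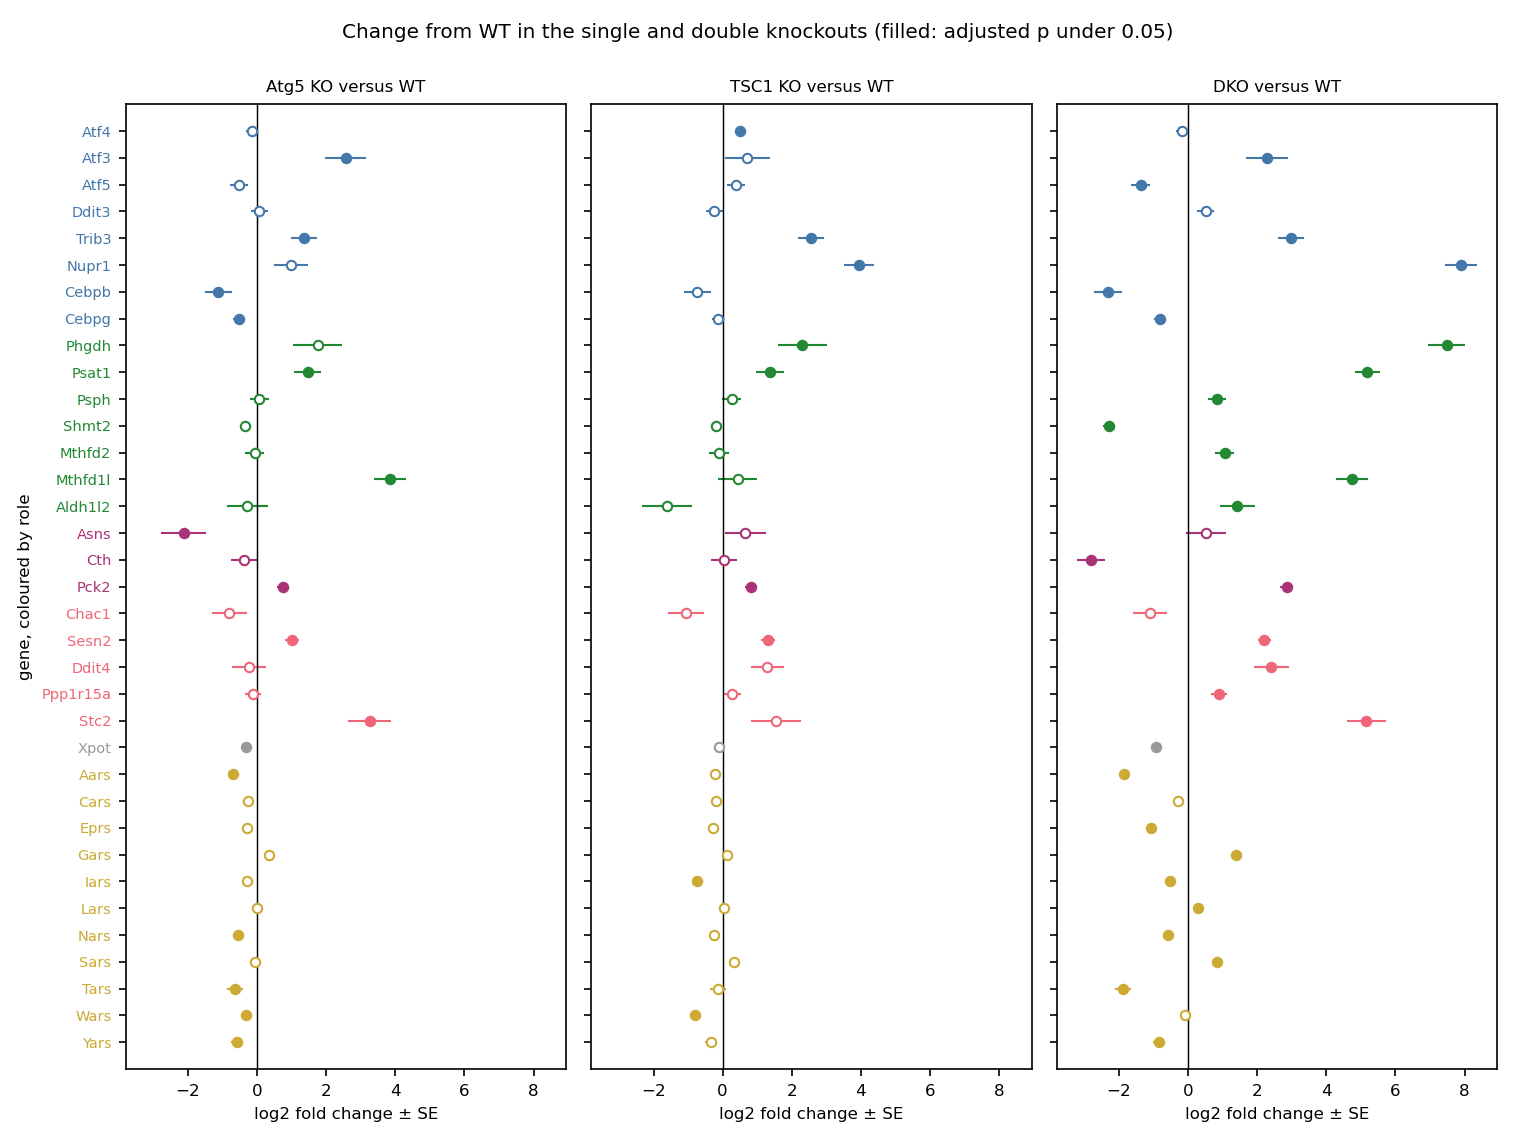
Log2 fold change ± SE (x axis) of the 35 members (y axis, coloured by role) in Atg5 KO, TSC1 KO and DKO versus WT, on 1 common x axis; filled points have an adjusted p under 0.05. The serine genes and stress genes lie mostly to the right in DKO, and 6 of the 11 synthetases are filled to the left there, against 2 called lower with totals alone.

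The cytosolic synthetases, which load amino acids onto tRNA, moved in both directions in DKO versus WT. Of 11, 3 rose and 6 fell, with a median of -0.53 beside 0.08 over all genes. With totals alone 7 were higher and 2 lower, but their median of 0.47 was below the 1.07 of all genes. Of the 6 that fell, Tars and Aars were also called lower with totals alone, Eprs was not called, and Iars, Nars and Yars turned to 0.47, 0.42 and 0.14. Gars, which charges glycine tRNA, was at 65.6, 69.8, 58 and 65.5 CPM in WT, 73.9, 63.8, 95.8 and 92.8 in Atg5 KO and 87.5, 69.8, 57.9 and 68.7 in TSC1 KO. It was at 184, 162, 159 and 176 CPM in DKO, 108, 108, 108 and 131 in p62 TKO and 66.2, 70.8, 72.7 and 89.6 in Nrf2 TKO. DKO lay above all other libraries and p62 TKO above all remaining ones, while Nrf2 TKO overlapped Atg5 KO. Gars rose in DKO (1.40 ± 0.14, adjusted p = 4.9e-09) with a positive interaction (0.93 ± 0.19, adjusted p = 0.00055), and fell from there in p62 TKO (-0.58 ± 0.13, adjusted p = 0.0011) and further in Nrf2 TKO (-1.19 ± 0.13, adjusted p = 1.5e-07), with a difference between the triple knockouts (0.60 ± 0.13, adjusted p = 0.0032).

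Sars, for serine, followed a similar course at a smaller size. It was at 84.9, 93.9, 105 and 90 CPM in WT, 182, 167, 181 and 139 in DKO, 126, 121, 108 and 161 in p62 TKO and 99, 97, 102 and 130 in Nrf2 TKO, and DKO did not overlap WT. It rose in DKO (0.84 ± 0.13, adjusted p = 4.4e-06) and fell in Nrf2 TKO (-0.64 ± 0.13, adjusted p = 0.00018). Its decrease in p62 TKO (-0.37 ± 0.13, adjusted p = 0.021) was not called without DKO replicate 1 or 3 or p62 TKO replicate 2 or 3 (-0.33 to -0.29, adjusted p = 0.059 to 0.095). Lars, for leucine, was 42.1 to 50.2 CPM in WT and 46.5 to 61.4 in DKO, and its increase (0.29 ± 0.12, adjusted p = 0.03) was not called without WT replicate 2, 3 or 4 or DKO replicate 1, 2 or 3 (0.19 to 0.29, adjusted p = 0.051 to 0.19).

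Aars, for alanine, had the opposite course. It was at 415, 451, 397 and 448 CPM in WT, 241, 286, 282 and 249 in Atg5 KO and 419, 322, 354 and 388 in TSC1 KO. It was at 133, 122, 123 and 95.9 CPM in DKO, 228, 260, 246 and 239 in p62 TKO and 275, 200, 362 and 368 in Nrf2 TKO. DKO was below the other 20 libraries, and Atg5 KO was below WT. Aars fell in Atg5 KO (-0.69 ± 0.15, adjusted p = 0.0015) and DKO (-1.85 ± 0.16, adjusted p = 4.8e-10), and was higher than in DKO in p62 TKO (1.04 ± 0.15, adjusted p = 1.1e-05) and Nrf2 TKO (1.35 ± 0.15, adjusted p = 1.5e-07).

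Tars, for threonine, went from 239, 261, 211 and 133 CPM in WT to 58.4, 57.1, 57.6 and 56 in DKO, where the 4 libraries lay below all others and very close together. It fell in DKO (-1.88 ± 0.24, adjusted p = 3e-07) and was higher in Nrf2 TKO than in DKO (0.95 ± 0.23, adjusted p = 0.0013), though 0.25 and not called with totals alone. In p62 TKO it held 76.7, 86.8, 81.3 and 73.5 CPM and was not called against DKO (0.47 ± 0.23, adjusted p = 0.1). With only p62 TKO and DKO in the model that change was called (0.49, adjusted p = 0.00098). Eprs, the fused synthetase for glutamate and proline, went from 192 to 264 CPM in WT to 91.1 to 119 in DKO (-1.07 ± 0.12, adjusted p = 6.3e-08), or to -0.07 without a call with totals alone. Yars, for tyrosine, was 54.9 to 67.1 CPM in WT and 27.2 to 38.4 in DKO (-0.85 ± 0.16, adjusted p = 8e-05), and Nars, for asparagine, 211 to 238 and 129 to 159 (-0.57 ± 0.12, adjusted p = 0.00018), both with no overlap and both reversed with totals alone as given above.

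Wars and Iars stood out in TSC1 KO. Wars, for tryptophan and also inducible by interferon gamma, was at 38.5, 38.9, 34.3 and 41 CPM in WT, 21.4, 22.9, 18.5 and 24.2 in TSC1 KO and 36.2, 35.4, 39.6 and 31.6 in DKO. The 4 TSC1 KO libraries were below all other 20, and DKO overlapped WT. Wars fell in TSC1 KO (-0.81 ± 0.12, adjusted p = 0.00011), was not called in DKO (-0.10 ± 0.12, adjusted p = 0.48) except with totals alone (0.90), and had a positive interaction (1.03 ± 0.17, adjusted p = 5.6e-05). The 11 tested interferon gamma responsive genes had a median change of 0.00 in TSC1 KO, beside 0.01 over all genes. In DKO 4 of them rose, among them Gbp2 (2.05 ± 0.33), and 2 fell. With totals alone 8 were higher and 0 lower, with a median of 1.15 beside 1.07 over all genes. Iars, for isoleucine, went from 57.3, 62.3, 51 and 48.1 CPM in WT to 31.8, 33.5, 34.3 and 30.5 in TSC1 KO and 35.1, 33.7, 45.2 and 37.7 in DKO, both below WT (-0.75 ± 0.15, adjusted p = 0.0018 for TSC1 KO, and -0.53 ± 0.15, adjusted p = 0.0034 for DKO, which turned to 0.47 with totals alone). Cars, for cysteine, was not called in DKO versus WT (-0.28 ± 0.14, adjusted p = 0.071), but was called lower without WT replicate 1 or 2 (both -0.37, adjusted p = 0.026 and 0.038) and higher with totals alone (0.71, adjusted p = 0.00015).

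Xpot, which exports tRNA from the nucleus, had closely grouped replicates. It was at 101, 102, 93.4 and 95.9 CPM in WT, 82.1, 82.1, 77.6 and 71.7 in Atg5 KO and 85.1, 90.2, 94 and 95.9 in TSC1 KO. It was at 57.8, 50.1, 51.9 and 46.9 CPM in DKO, 64.6, 69.7, 71.8 and 70.5 in p62 TKO and 83.6, 79.9, 82.6 and 80.6 in Nrf2 TKO. The ranges of DKO, p62 TKO and Nrf2 TKO rose in that order without overlap. Xpot fell in DKO (-0.93 ± 0.08, adjusted p = 7e-10) and was higher than in DKO in p62 TKO (0.42 ± 0.08, adjusted p = 0.00018) and Nrf2 TKO (0.66 ± 0.08, adjusted p = 3.2e-07), but with totals alone these 3 changes were 0.07, -0.04 and -0.01.

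Synthetases outside the list depended on the scaling in the same way. Of 12 other cytosolic synthetases and scaffold genes 1 rose and 8 fell in DKO versus WT, with a median of -0.37 beside 0.08 over all genes. With totals alone 8 were higher and 2 lower, with a median of 0.63 beside 1.07. The phenylalanine subunit gene Farsb fell from 57.3 ± 5.42 to 22.4 ± 2.79 CPM (-1.35 ± 0.12, adjusted p = 5.9e-10), and Dars, for aspartate, from 94.6 ± 12.6 to 39 ± 3.44 (-1.28 ± 0.12, adjusted p = 3.2e-09). Of 17 mitochondrial synthetases, encoded by separate genes, 1 rose and 14 fell, with a median of -0.84. With totals alone 7 were higher and 2 lower, with a median of 0.16 beside 1.07 over all genes. Nars2 went from 27 ± 1.85 to 6.33 ± 1.3 CPM (-2.09 ± 0.19, adjusted p = 2.4e-09) and was also lower with totals alone (-1.10). In Nrf2 TKO versus DKO 12 of the 17 were higher and 1 lower, and in p62 TKO versus DKO 9 were higher and 0 lower, against 2 and 5, and 3 and 3, with totals alone.

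**Figure D4:**
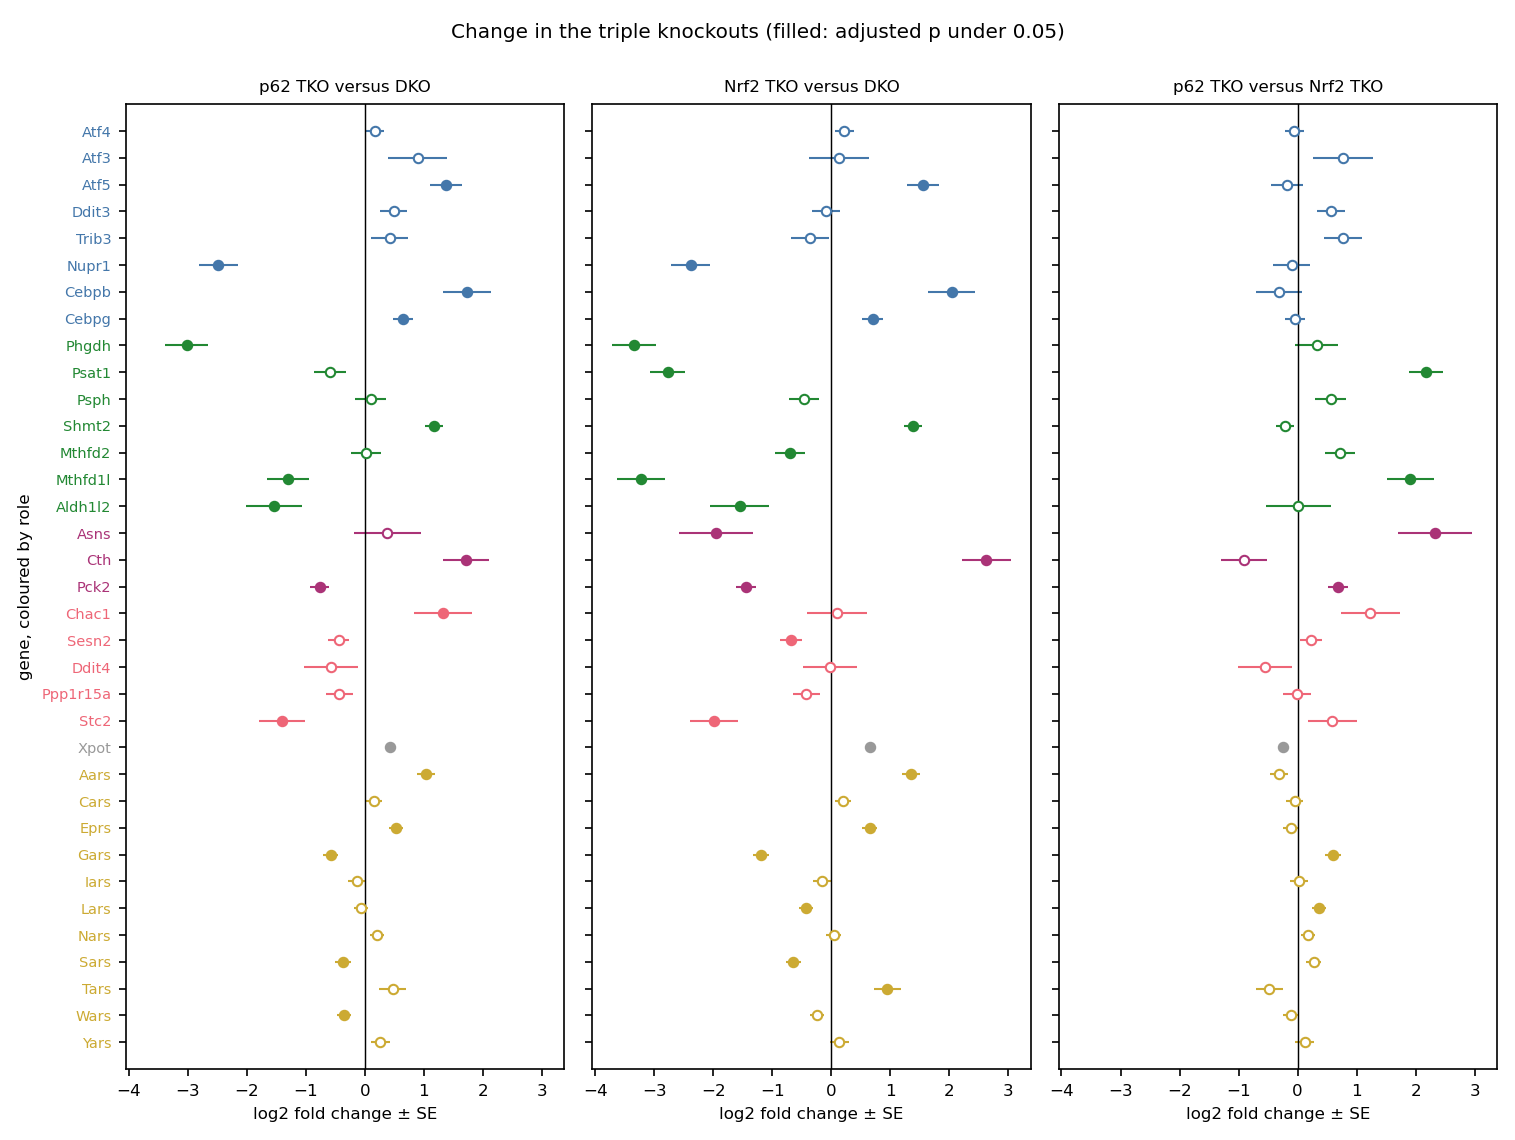
Log2 fold change ± SE of the 35 members in p62 TKO versus DKO, Nrf2 TKO versus DKO and p62 TKO versus Nrf2 TKO, on 1 common x axis and coloured by role; filled points have an adjusted p under 0.05, and the first 2 panels share the DKO libraries. Phgdh and Nupr1 are filled far to the left in both comparisons with DKO, and Asns, Psat1 and Mthfd1l are filled to the right between the triple knockouts.

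The triple knockouts were then compared directly, a contrast in which the DKO libraries have no part. Asns (2.33 ± 0.63), Psat1 (2.18 ± 0.29), Mthfd1l (1.91 ± 0.40), Pck2 (0.68 ± 0.17), Gars (0.60 ± 0.13) and Lars (0.36 ± 0.12) were higher in p62 TKO, and Xpot (-0.24 ± 0.08) was lower. The largest 3 are enzymes of asparagine, serine and formate production. Lars was not called when any 1 of the 8 libraries was left out (0.27 to 0.37, adjusted p = 0.058 to 0.14), and Xpot not without p62 TKO replicate 1, 3 or 4 or Nrf2 TKO replicate 1 (-0.26 to -0.21, adjusted p = 0.05 to 0.12). Phgdh and Nupr1 were not called in this contrast (0.32 ± 0.37, adjusted p = 0.6 for Phgdh). Summed markers of hepatocytes, macrophages and cycling cells did not overlap between these livers. Hepatocyte sums were 71384 to 95515 CPM in Nrf2 TKO and 37761 to 48662 in p62 TKO. Macrophage sums were 208 to 317 CPM in Nrf2 TKO and 586 to 972 in p62 TKO, and cycling sums 66.3 to 113 and 159 to 201 CPM. The part of these markers in the differences was not tested.

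Amino acid transporters linked to ATF4 were examined beside the members. Of 10 transporters 7 rose and 2 fell in DKO versus WT, with a median of 1.35, or 8 and 1 with a median of 2.35 with totals alone. In Nrf2 TKO versus DKO 8 were lower and 2 higher under either scaling. Slc7a11, the cystine importer and also a textbook Nrf2 target, was barely counted in WT (0.258 ± 0.199 CPM) and TSC1 KO (0.631 ± 0.298 CPM), against 185 ± 103 CPM in Atg5 KO and 136 ± 71.1 in DKO (mean ± SD, n = 4). It was at 193 ± 96.6 CPM in p62 TKO and 1.33 ± 1.18 in Nrf2 TKO. High levels were thus found in Atg5 KO, DKO and p62 TKO, with a change in Nrf2 TKO versus DKO of -6.69 ± 0.68, adjusted p = 9.5e-08. Its partner subunit Slc3a2 rose in DKO (1.36 ± 0.19, adjusted p = 1.3e-06) and fell in Nrf2 TKO against DKO (-0.93 ± 0.19, adjusted p = 0.00022), but was not called in p62 TKO (0.03 ± 0.19, adjusted p = 0.91). The arginine and lysine importer Slc7a1 rose in DKO (4.54 ± 0.40, adjusted p = 1.2e-09) and was lower than in DKO in both triple knockouts (p62 TKO -1.87 ± 0.32, Nrf2 TKO -2.24 ± 0.33).

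Of 18 further ATF4 targets 10 rose and 3 fell in DKO versus WT, with a median of 0.62 beside 0.08 over all genes. With totals alone 15 were higher and 1 lower, with a median of 1.63 beside 1.07. Aldh18a1, the first enzyme of proline synthesis, was at 1.28 ± 0.373 CPM in WT, 22.3 ± 4.97 in DKO, 4.5 ± 1.98 in Nrf2 TKO and 11.6 ± 3.09 in p62 TKO (4.11 ± 0.41, adjusted p = 7.9e-09 for DKO versus WT). The lipoprotein receptor gene Vldlr rose in DKO as well (5.52 ± 0.57, adjusted p = 2e-08). Upstream, of 13 genes for eIF2 kinases, eIF2 and eIF2B 2 rose and 7 fell with TMM. With totals alone 10 were higher and 2 lower, but their median of 0.56 was below the 1.07 of all genes. The kinase gene Eif2ak3, which encodes PERK, rose from 22.8 ± 4.52 to 67.6 ± 10.6 CPM (1.57 ± 0.17, adjusted p = 2.1e-08), and Ppp1r15b, whose product serves the constitutive eIF2 phosphatase, fell from 145 ± 21.9 to 49.4 ± 3.95 CPM (-1.55 ± 0.12, adjusted p = 1.4e-10).

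Genes of the other arms of the unfolded protein response were lower in all 3 genotypes compared with WT. Of 16 endoplasmic reticulum chaperones and targets of ATF6 or XBP1, 0 rose and 14 fell in Atg5 KO, 0 rose and 15 fell in TSC1 KO, and 0 rose and 16 fell in DKO, with medians of -1.0, -1.0 and -2.76. With totals alone 13, 15 and 14 of them were lower and 0 higher. The chaperone gene Hspa5 was at 2560 ± 718 CPM in WT, 996 ± 146 in TSC1 KO, 1072 ± 336 in Atg5 KO and 282 ± 38.8 in DKO. It was higher in p62 TKO (1.27 ± 0.26, adjusted p = 0.00044) and Nrf2 TKO (1.74 ± 0.27, adjusted p = 7.9e-06) than in DKO. Of 8 mitochondrial unfolded protein genes 0 rose and 7 fell in DKO versus WT, with a median of -1.15, or 3 and 4 with totals alone. The chaperonin gene Hspd1 fell from 624 ± 43.2 to 142 ± 24.5 CPM (-2.14 ± 0.19, adjusted p = 1e-09).

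Set against the promoter element shown above, members with it and without it went both ways. Of the 11 with the element 5 rose (Atf3, Gars, Nupr1, Pck2, Trib3) and 4 fell (Aars, Iars, Tars, Yars) in DKO versus WT. Of the 18 members with a window and no element 10 rose and 6 fell. Over all tested genes 37.1% were called higher and 32.3% lower. With totals alone Iars (0.47), Yars (0.14), Cebpg (0.19) and Xpot (0.07) changed sign, and Atf5 and Eprs were not called. Aars, Tars, Cebpb and Shmt2 stayed lower. Nupr1 and Aars carry the same letters, TTGCATCA, at a similar distance before the start, and stood 239-fold higher and 3.61-fold lower.

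Over the 6 genotypes, 13 members had their highest mean in DKO and 14 their lowest, and 12 were highest and 11 lowest in WT. For 7 members all 4 DKO libraries lay above the other 20 libraries, and for 7 they lay below. The 7 above include Aldh1l2, which passed the filter only through DKO. The Nrf2 TKO livers had the highest mean for 0 of the 35 members and the lowest for 1. Such counts were not made over all tested genes, of which 37.1% were called higher and 32.3% lower in DKO versus WT. They therefore do not show a trait particular to the members.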

How the data were processed

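The deposited table holds unnormalised read counts for Ensembl genes in mouse liver, 1 column per library. The authors made these counts with Trimmomatic 0.36, HISAT2 2.1.0 and HTSeq on GRCm38, per the submitters' processing notes. Neither the annotation release nor the use of strand in counting is stated in these sources. Of the 35 members 12 share exon bases with a gene on the other strand. Totals ran from 10494080 to 13057467, which limits precision for genes with few counts. No 2 libraries were identical.

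From the counts, filterByExpr on the 6 genotypes left 15851 genes, libraries were scaled by TMM, and 1 mean per genotype was fitted to the 24 libraries (18 residual degrees of freedom) with edgeR 4.0.16 (robust quasi-likelihood, R 4.3.3). Each comparison was adjusted by Benjamini-Hochberg over all genes tested. The method was tested on simulated data. Symbols and exons come from GENCODE M21 and promoters from RefSeq. The members, the gene lists and the rule for names were chosen with earlier results of these data known. All 35 members could be named, and from each other list up to 3 genes with the smallest adjusted p in DKO versus WT and up to 3 with the highest mean. Alternatives were DESeq2 1.42.0, its size factors, totals alone, no filter, the compared groups alone, a replicate block, and leaving out each library. Lists were described by counts and medians without a set test. Cell type markers were treated in the same way and also summed per library.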

Additional observations from a re-analysis of the deposited data

Results flagged for a closer look

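In 16 of 210 sets of 4 libraries (35 members in 6 genotypes), 1 library stood apart from the other 3 by Dixon's 95% criterion, which chance meets in about 1 set in 20. In WT these were Atf5 at 444 CPM (others 350 to 356), Psph at 11.2 CPM (others 8.39 to 8.78) and Stc2 at 0.365 CPM (others 0.106 to 0.116). In Atg5 KO Asns stood at 12.5 CPM in 1 library against 1.45 to 2.15 in the others, Psph at 14.8 against 7.64 to 8.59, Iars at 52.1 against 41.7 to 43.3, Nars at 166 against 145 to 148, and Psat1 low at 1.26 against 3.03 to 3.35. In p62 TKO Mthfd1l reached 13.6 CPM against 6.99 to 7.5 and Gars 131 against 108, while Shmt2 was low at 112 against 134 to 139, Eprs at 135 against 163 to 165 and Iars at 31.6 against 35.2 to 35.8. Lars stood at 63.1 CPM in 1 TSC1 KO library against 40.3 to 43, Sars at 130 in 1 Nrf2 TKO library against 97 to 102, and Nars at 129 in 1 DKO library against 155 to 159.

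The effect of losing TSC1 differed with and without Atg5 for 16 members, by edgeR's test of the interaction on the log2 scale. It was positive for Phgdh (3.42), Aldh1l2 (3.31), Nupr1 (2.97), Psat1 (2.33), Pck2 (1.28), Mthfd2 (1.24), Wars (1.03), Gars (0.93) and Sars (0.57). It was negative for Cth (-2.46), Shmt2 (-1.75), Atf5 (-1.25), Tars (-1.10), Aars (-0.95), Eprs (-0.52) and Xpot (-0.50). Aldh1l2 passed the low-count filter only through the DKO libraries, so its positive value was bound to appear. With library totals alone the values of Atf5, Tars, Eprs and Xpot were -0.72, -0.57, -0.03 and -0.01 and not called. The call was also lost for Mthfd2 without WT replicate 4 or DKO replicate 1 (0.97 to 1.04, adjusted p = 0.051 in both), for Phgdh without WT replicate 1 (3.1, adjusted p = 0.07), and for Sars without WT replicate 2 or 3, Atg5 KO replicate 2, TSC1 KO replicate 3 or 4 or DKO replicate 1 or 3 (0.45 to 0.51, adjusted p = 0.051 to 0.077).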

How the results depend on the processing

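Library totals in place of TMM moved the results most. Between p62 TKO and Nrf2 TKO 13 members were called in place of 7. Of 315 member values, 17 that were called with TMM changed sign. These were Xpot (0.05) and Wars (0.06) in Atg5 KO versus WT; Cebpg (0.19), Xpot (0.07), Iars (0.47), Nars (0.42) and Yars (0.14) in DKO versus WT; Xpot (0.02) in DKO versus Atg5 KO; Atf4 (0.16), Cebpg (0.19), Xpot (0.04), Eprs (0.06), Nars (0.53) and Yars (0.36) in DKO versus TSC1 KO. Against DKO they were Xpot (-0.04) in p62 TKO, and Xpot (-0.01) and Eprs (-0.02) in Nrf2 TKO. A further 55 gained and 21 lost a call. Values not called with TMM that changed sign, such as those of Atf4, Cars and Wars in DKO versus WT, are not among the 17. DESeq2 kept the side of the threshold, and the direction of called values, for 308 of 315 values. Its size factors did so for 313, no filter for 301, and the compared groups alone for 288 of 308. Leaving out 1 library kept 2659 of 2800.

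Leaving out 1 library gave 12 to 17 members called in Atg5 KO versus WT, 6 to 9 in TSC1 KO versus WT, 28 to 30 in DKO versus WT, 22 to 25 in DKO versus Atg5 KO, 25 to 28 in DKO versus TSC1 KO, 15 to 17 for the interaction, 21 to 22 in Nrf2 TKO versus DKO, 15 to 20 in p62 TKO versus DKO, and 5 to 8 between the triple knockouts.

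With the replicate number as a block, these counts were, in the same order, 16, 8, 29, 25, 28, 17, 22, 18 and 6. Here 310 of 315 values kept their side of the threshold and, if called, their direction. Same-numbered libraries did not deviate together (7 of 60 pairs had a correlation over 0.1, range -0.282 to 0.261), and 6 of 24 libraries correlated best with their own number. The labels state no litter, day or batch, and this check cannot settle whether same-numbered libraries shared one. Depth limits Phgdh, Stc2 and Aldh1l2, which had 8, 6 and 14 counts in the WT libraries together.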
